A study of Homo sapiens with 6 samples.

Results

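CLK1, CLK2, CLK3 and CLK4 are the 4 human CDC-like kinases, and every splicing event that the deposited table assigns to one of these gene symbols was taken. The table held 219 such events, 62 in CLK1, 48 in CLK2, 62 in CLK3 and 47 in CLK4, of 721551 events in all. They were 50 exons, 48 introns, 82 acceptor sites and 39 donor sites. The samples were SKNBE2 cells, a human neuroblastoma line whose genotype is given as MYCN amplified, 3 libraries labelled Control and 3 labelled DFMO. DFMO is difluoromethylornithine, an inhibitor of ornithine decarboxylase, the enzyme that makes putrescine at the start of polyamine synthesis, and it was given at 250 µM for 4 days. All 6 libraries come from this single line, and nothing in the labels says whether replicates were separate cultures, so p-values measure only the spread between these samples, which may be technical.

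CLK kinases are dual-specificity kinases of the nucleus that phosphorylate SR proteins, the serine- and arginine-rich splicing factors, and so alter where these factors sit and which splice sites are used. The genes regulate their own transcripts: exon 4 of CLK1 is a known cassette exon, and the transcript without it is shifted out of frame before the kinase domain. Such a transcript cannot encode the active kinase. Skipping and retention of the neighbouring introns of CLK1 are known to respond to CLK activity, heat and other stress.

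Event reads, summed over the entries of all classes, ran from 77648922 to 103250467 per library. As a check of the cell type, each marker gene was given the reads of its best-covered exon event per 1000000 event reads, and it counted as measured if 1 of its exon events had enough coverage in each library. Of 13 noradrenergic neuroblastoma genes, 12 were measured, and their summed reads ran from 477 to 493 in Control and from 547 to 549 with DFMO. Of 10 mesenchymal or fibroblast genes 4 were measured, at 31 to 33.7 summed in Control and 33.6 to 34.6 with DFMO. None of 5 immune and 4 epithelial genes was measured by the same criterion, with sums of at most 0.28 and 0.314, and CD14, KRT8 and KRT18 were at 0. The noradrenergic sum was higher in every DFMO library, and its part in the results below was not tested.

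The 4 genes have a cassette exon at the same place, exon 4 of 13, inside the coding sequence. Its sequence is shown because the finding turns on it, 5′ to 3′ on the gene's strand, from the GENCODE v29 transcripts (GRCh38), with the bases between the alternative acceptors of the table in capitals. The exons lie at chr2:200860125-200860215 (minus strand), chr1:155268708-155268795 (minus strand), chr15:74622120-74622216 (plus strand) and chr5:178617344-178617434 (minus strand), for CLK1, CLK2, CLK3 and CLK4 in that order.
CLK1 exon 4: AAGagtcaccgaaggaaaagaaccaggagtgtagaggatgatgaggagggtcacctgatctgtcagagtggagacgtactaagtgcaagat
CLK2 exon 4: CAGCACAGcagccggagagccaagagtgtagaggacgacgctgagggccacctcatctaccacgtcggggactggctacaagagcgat
CLK3 exon 4: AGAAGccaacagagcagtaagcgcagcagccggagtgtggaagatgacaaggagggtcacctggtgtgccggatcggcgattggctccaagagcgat
CLK4 exon 4: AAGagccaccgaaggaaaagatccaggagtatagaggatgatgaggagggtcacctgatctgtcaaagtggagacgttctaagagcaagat

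The exon is 91 nt long in CLK1 and CLK4, 88 nt in CLK2 and 97 nt in CLK3, and each length leaves 1 base over when divided by 3. The CLK1 and CLK4 exons share 85 of 91 aligned bases, or 93.4%, while the other 5 pairs of genes share 62.6% to 66.3%. Because these 2 exons are so alike, reads could be split between them. Across each of the junctions described here, in all 4 genes, 35 windows of 50 bases were taken. None was found as an exact match in a transcript of another CLK gene. Matches with a differing base and transcripts of other genes were not searched, so the search cannot settle whether reads were split. The events of the table that describe CLK3 and CLK4 exon 4 start at the inner acceptor, so their lengths are given there as 92 nt and 88 nt.

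Skipping joins exon 3 to exon 5 in another reading frame. The joined sequences are shown from 15 bases before the junction to the first stop codon in the frame of exon 3, which is in capitals.
CLK1 exon 3 to exon 5: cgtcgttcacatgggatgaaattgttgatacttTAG
CLK2 exon 3 to exon 5: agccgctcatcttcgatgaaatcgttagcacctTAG
CLK3 exon 3 to exon 5: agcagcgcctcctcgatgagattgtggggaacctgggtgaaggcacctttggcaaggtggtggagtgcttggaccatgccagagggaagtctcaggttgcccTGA
CLK4 exon 3 to exon 5: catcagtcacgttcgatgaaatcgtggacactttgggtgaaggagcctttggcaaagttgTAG

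The full reading frames hold 484, 499, 490 and 481 codons for CLK1 to CLK4. After skipping, the frame holds 136, 139, 152 and 143 codons. The new stop lies 740 to 809 bases before the last exon junction, with 7 or 8 junctions after it. GENCODE v29 lists 1, 1, 4 and 2 transcripts with this skip in CLK1 to CLK4, of which 1, 0, 2 and 1 carry the class nonsense-mediated decay, the degradation of transcripts with an early stop. What share of the skipped transcripts is degraded was not measured here.

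Exon 4 of CLK1 was skipped more with DFMO. Its inclusion was 39.38%, 36.74% and 36.77% in the 3 Control libraries and 18.81%, 17.19% and 15.84% in the 3 DFMO libraries, from 409 to 584 reads per library. All DFMO libraries lay below all Control libraries. The mean fell from 37.63% ± 1.52 to 17.28% ± 1.49 (SD, n = 3 each), a difference of -20.35 points. On the log2 odds of inclusion the difference was -1.53 with a standard error of 0.17, and the adjusted p was 0.000151 (limma, Benjamini-Hochberg over 7500 exons). A call needed both an adjusted p below 0.05 and group means at least 10 points apart, and this was the single call among 12 tested CLK events, 7 of them exons. In the series, 3.45% of the tested exons were called, 0.747% as lower and 2.71% as higher with DFMO. Without a variance trend in the fit the same exon had an adjusted p of 0.0924, which ends the call.

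The reads behind the percent moved in opposite directions. Reads across the junction from exon 3 into exon 4 of CLK1 numbered 141, 141 and 176 in Control and 63, 56 and 67 with DFMO. Out of exon 4 into exon 5, the counts were 124, 96 and 138 in Control against 82, 64 and 58 with DFMO. For the skipping junction they were 204, 204 and 270 in Control against 313, 289 and 332 with DFMO. Both inclusion junctions were thus lower and the skipping junction higher in each DFMO library. Scaled to 1000000 event reads (rpm), the mean of both inclusion junctions went from 1.54 ± 0.02 to 0.72 ± 0.0009 (SD, n = 3), a ratio of 0.472. The skipping junction went from 2.55 ± 0.13 to 3.49 ± 0.36 rpm, a ratio of 1.37.

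Exon 4 of CLK4, the closest relative of CLK1, had lower inclusion in every DFMO library but did not pass the test. The values were 57.25%, 46.77% and 40.54% in Control and 28.99%, 36.62% and 33.33% with DFMO, from 82 to 109 reads per library. The groups did not overlap, and the spread in Control was wider than for CLK1. The means were 48.19% ± 8.44 and 32.98% ± 3.83 (SD, n = 3), a difference of -15.2 points. The log2 odds differed by -0.91 with a standard error of 0.34, and the adjusted p was 0.143 (limma). Inclusion junctions of CLK4 averaged 0.369 and 0.266 rpm in Control and DFMO, with overlapping groups. Its skipping junction was at 0.394 and 0.54 rpm, a ratio of 1.37, and did not overlap.

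CLK3 exon 4 was mostly included in both groups. Inclusion was 85.28%, 87.3% and 85.83% in Control and 76.35%, 81.33% and 82.09% with DFMO, from 229 to 323 reads per library. The DFMO libraries lay below the Control libraries without overlap, at 79.92% ± 3.12 against 86.14% ± 1.04 (SD, n = 3). The difference of -6.21 points, or -0.63 ± 0.25 (SE) on log2 odds, did not pass the test, with an adjusted p of 0.17 (limma). Inclusion junctions of CLK3 were at 1.57 and 1.28 rpm in Control and DFMO and the skipping junction at 0.245 and 0.313, and neither overlapped between groups.

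CLK2 exon 4 stood the other way. The deposited inclusion was 93.11%, 92.27% and 93.35% in Control and 94.34%, 95.54% and 94.61% with DFMO, higher in each DFMO library. The means were 92.91% ± 0.57 and 94.83% ± 0.63 (SD, n = 3), and the log2 odds differed by 0.49 with a standard error of 0.44 and an adjusted p of 0.562 (limma). The level of this exon depended on how reads were turned into a percent. The junction reads printed beside the percents, taken as they are, gave 36.4%, 40% and 37.2% in Control and 47.2%, 50% and 51.2% with DFMO. The deposited and the uncorrected mean thus differed by 50.2 points, and 0.0403% of 7444 exons had a gap at least as large, while the median gap was 0.063 points. For CLK1, CLK3 and CLK4 the gap was at most 0.39 points.

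From these uncorrected reads the CLK2 difference was 11.6 points, from 37.87% ± 1.88 to 49.45% ± 2.04 (SD, n = 3), with an adjusted p of 0.092 (limma), so it did not pass the test either. From uncorrected reads 4.82% of the exons were called, and of the 7 CLK exons CLK1 exon 4 alone. The inclusion junctions of CLK2 went from 0.385 ± 0.023 to 0.711 ± 0.058 rpm, a ratio of 1.84. The skipping junction went from 0.632 ± 0.015 to 0.727 ± 0.075 rpm, a ratio of 1.15. Both were higher in all DFMO libraries. How the authors corrected these reads is not given in the sources used here.

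**Figure D1:**
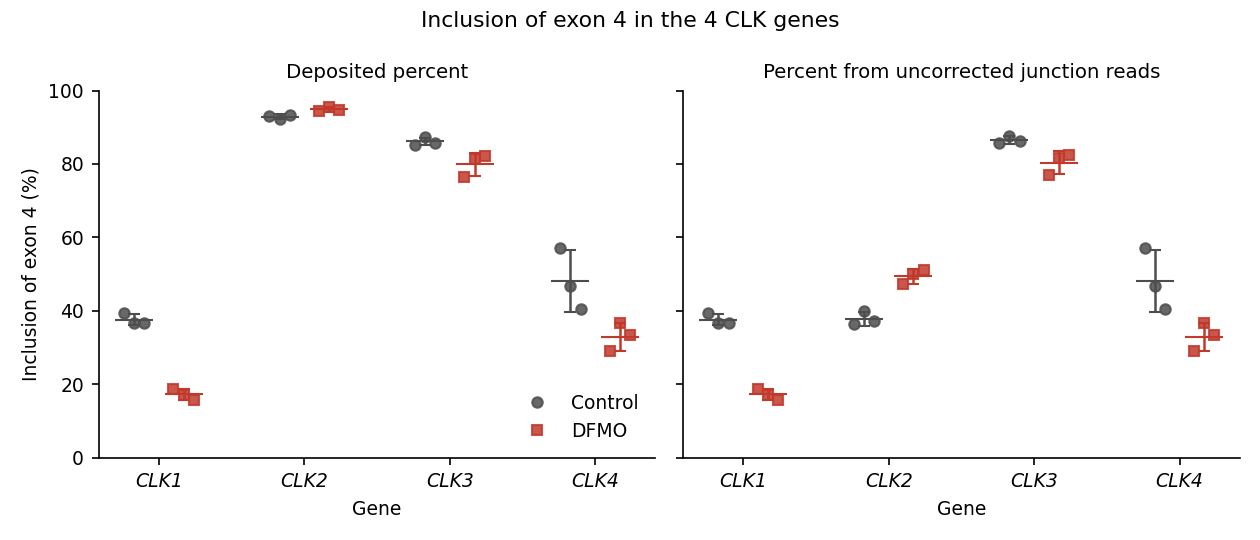
Inclusion of exon 4 in percent (y axis) in CLK1, CLK2, CLK3 and CLK4 (x axis), as deposited (left) and from uncorrected junction reads (right). Grey circles are the 3 Control libraries, red squares the 3 DFMO libraries, and lines with bars the mean ± SD. The CLK1 libraries lie at 36.74% to 39.38% in Control and 15.84% to 18.81% with DFMO, and CLK2 is the gene whose level differs between the panels.

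**Figure D2:**
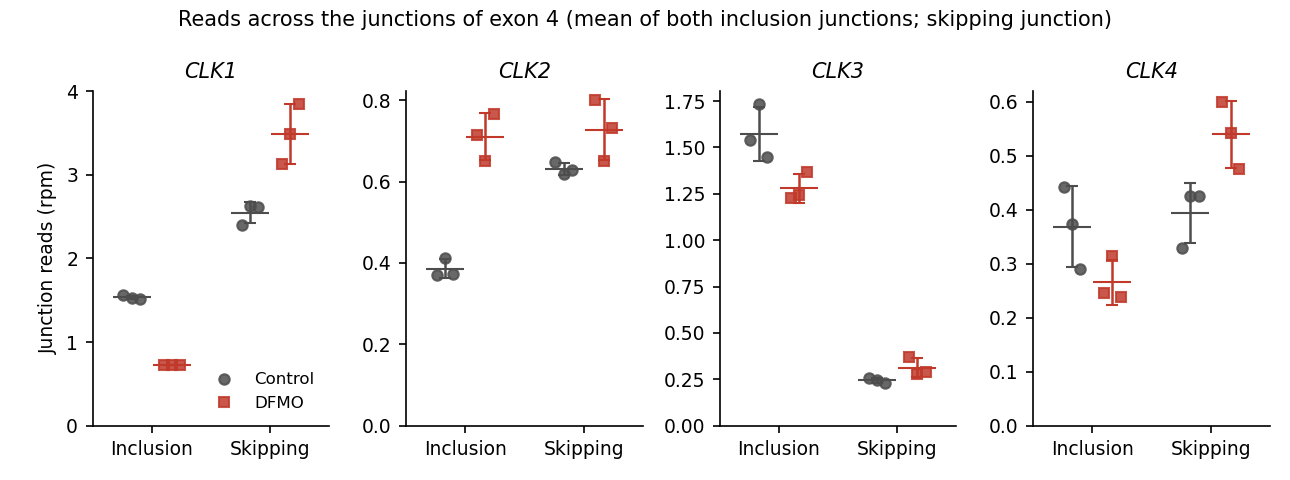
Junction reads of exon 4 in rpm (y axis, a separate linear scale from 0 for each gene), as the mean of both inclusion junctions and as the skipping junction. Points are libraries, and lines with bars the mean ± SD (n = 3). In CLK1 inclusion is lower and skipping higher with DFMO (0.72 and 3.49 against 1.54 and 2.55), whereas in CLK2 both are higher.

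Of the 4 exons, 3 were lower without overlap and 1 was higher without overlap. Over all tested exons, 8.33% were lower and 17.9% higher without overlap. The changes of the 4 exons were compared with each other through the per-library difference in log2 odds between 2 genes, in 6 pairs. The test was a two-sided exact permutation test for which 0.1 is the smallest possible p. In each gene the tested exon with the lowest p was taken, which was exon 4 in all 4 genes and the only tested exon in CLK2 and CLK3. The exons were thus picked on the same libraries, so these p-values describe the comparison and are not independent support. The CLK1 change lay below that of CLK2 (difference of changes -2.02, exact p = 0.1, Benjamini-Hochberg adjusted over the 6 pairs 0.15). It also lay below that of CLK3 (-0.90, exact p = 0.1, adjusted 0.15). Against CLK4 the difference of changes was -0.62 (exact p = 0.2, adjusted 0.24), and the libraries overlapped. CLK2 stood above CLK3 by 1.13 and above CLK4 by 1.41 (exact p = 0.1 and adjusted 0.15 for each). CLK3 and CLK4 differed by 0.28 (exact p = 0.6). The design cannot reach 0.05 in this test, so none of these differences passed it.

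The introns on both sides of exon 4 were spliced in nearly all reads. In CLK1 the upstream intron was retained at 2.07%, 0.8% and 3.47% in Control and 4.47%, 3.13% and 2.59% with DFMO. The downstream intron of CLK1 was retained at 2.74%, 1.35% and 3.83% in Control and 2.64%, 4.38% and 2.89% with DFMO. Both overlapped between groups. In CLK2 the means were 6.70% and 5.92% upstream and 4.13% and 5.86% downstream, for Control and DFMO in that order, and both overlapped. In CLK3 they were 1.63% and 1.41% upstream and 1.39% and 1.63% downstream, again overlapping. The upstream intron of CLK4 was retained at 0.0%, 1.47% and 1.71% in Control and 2.25%, 4.4% and 2.19% with DFMO, without overlap, but the border reads behind it numbered 0 to 7 per library. The downstream CLK4 intron was at 2.61% and 3.19% and overlapped.

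Set together, the reads for inclusion, skipping and the borders of both introns give the makeup of this stretch of each transcript. In CLK1 the included share was 36.9% in Control and 16.8% with DFMO, the skipped share 61.1% and 80.4%, and the retained share 2.05% and 2.79%. The 3 shares make up the whole, so with a small retained share a lower included share must go with a higher skipped share. The retained share of CLK1 overlapped between groups. In CLK4 the included share was 47.4% and 32.0%, the skipped share 50.9% and 65.0%, and the retained share 1.70% and 3.04%. In CLK3 the 3 shares were 85.2%, 13.3% and 1.47% in Control and 79.2%, 19.3% and 1.51% with DFMO. In CLK2, from uncorrected reads, they were 35.0%, 57.3% and 7.72% in Control and 45.2%, 46.1% and 8.73% with DFMO. These shares use the same reads as the percents, so no test was added.

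The other 8 tested events of the CLK genes did not pass the test. Exon 7 of CLK1, a coding exon of 167 nt at chr2:200857718-200857884, was included at 93.36%, 88.92% and 90.24% in Control and 83.0%, 94.12% and 93.59% with DFMO (limma adjusted p = 0.967). One DFMO library was the lowest and the other 2 were the highest of the 6. Of the 5 tested introns and acceptor sites, none had an unadjusted p below 0.05 in limma or in a quasi-binomial test, and none was called in either. In the series 3.8% of the tested introns and 1.23% of the tested acceptor sites were called.

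In CLK4, 2 exons inside the second intron were tested. The 67-nt exon at chr5:178622393-178622459, in 1 annotated transcript, was included at 5.0%, 10.34% and 5.75% in Control and 14.52%, 18.71% and 10.64% with DFMO. All DFMO values lay above all Control values, with means of 7.03% ± 2.89 and 14.6% ± 4.04 (SD, n = 3) and an adjusted p of 0.249 (limma). The 59-nt exon at chr5:178619838-178619896, in 2 annotated transcripts, was at 30.77%, 23.08% and 17.58% in Control and 34.31%, 11.26% and 23.46% with DFMO, and it overlapped (adjusted p = 0.899, limma).

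CLK2 had alternative acceptors at exons 3 and 4. At exon 3, the acceptor that adds 3 nt was used at 65.4% ± 7.34 in Control and 72.7% ± 4.61 with DFMO (SD, n = 3, limma adjusted p = 0.525). At exon 4, the acceptor of the full exon, with all 8 capital bases above, was used at 76.1% ± 9.05 in Control and 84.0% ± 4.85 with DFMO. The acceptor that leaves out the first 3 of them was used at 23.9% and 16.0%, a difference of -7.95 points that was -2.73 points without Control replicate 3. These 2 values mirror each other and carry the same test (SD, n = 3, limma adjusted p = 0.512), and both overlapped between groups. The third intron of CLK2, 692 nt at chr1:155268796-155269487, was at 6.70% and 5.92% (adjusted p = 0.817, limma). The last CLK3 intron, 674 nt at chr15:74629033-74629706, was the most retained intron of the 4 genes with enough reads, at 18% ± 2.06 and 17.9% ± 5.21 (SD, n = 3, limma adjusted p = 0.955). Neither this intron nor the third intron of CLK2 gave a value when balanced reads at both ends were required.

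The remaining events gave no test. Of the 219, 125 met the minimum of coverage, a score of at least LOW with 10 reads or more in each library, besides 49 reference sites of acceptor and donor groups that were left out and 45 events with too few reads. Among the 125, 40 had a mean above 95% and 73 a mean below 5%. No donor site lay between these bounds. Among the events with too few reads was a 132-nt CLK3 exon at chr15:74607979-74608110, named here after its values were seen, at 20%, 28.21% and 27.27% in Control and 7.5%, 13.04% and 15% with DFMO.

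Across whole transcripts, the introns of CLK1 were low and most stood slightly higher with DFMO. Of the 48 CLK introns 46 had enough reads, and 25 had a higher mean with DFMO, 16 a lower mean and 5 an equal one. In CLK1 11 of 12 were higher, 3 of them without overlap, with a median difference of 0.391 points. In CLK4 7 of 11 were higher, 2 without overlap. In CLK2 3 of 12 were higher and 8 lower, 1 of them without overlap (-1.08 points). In CLK3 4 of 11 were higher and 6 lower, 1 of them without overlap (-0.68 points). Over 88789 introns of the series 31953 were higher, 22435 lower and 34401 equal, with a median retention of 0.0% in Control. Without overlap, 3.82% were higher and 1.8% lower. The counts were not tested, since introns of a gene come from the same transcripts.

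The fifth intron of CLK1, 1590 nt at chr2:200858090-200859679, was retained at 0.75%, 0.62% and 1.34% in Control and 3.57%, 3.53% and 2.76% with DFMO. The groups did not overlap, but with no filter on the mean percent its adjusted p was 0.103 (limma). The last intron of CLK4, 86 nt at chr5:178603758-178603843, was at 1.2%, 0.74% and 1.94% in Control and 4.46%, 6.45% and 3.92% with DFMO (adjusted p = 0.475, limma). These introns were named after their values were seen, as those that differed most without overlap.

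**Figure D3:**
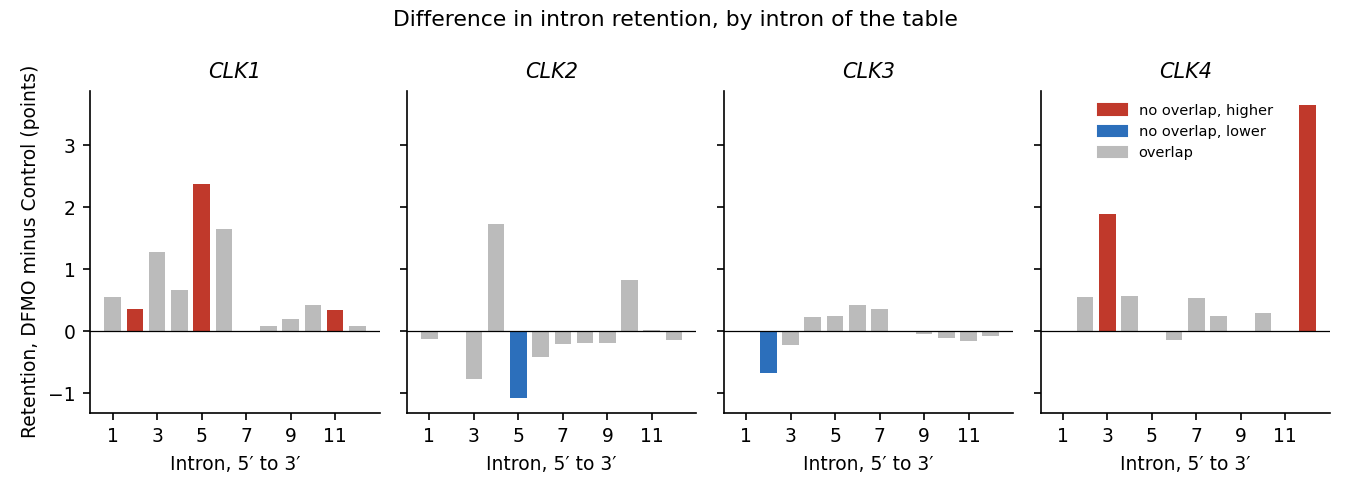
Difference in intron retention, DFMO minus Control group mean, in percentage points (y axis) for each intron of CLK1, CLK2, CLK3 and CLK4 in transcript order (x axis). Red and blue bars are introns whose groups did not overlap, higher or lower with DFMO, and grey bars overlap; the 2 introns with too few reads have no bar. In CLK1 11 of 12 bars point up, and the fifth, at 2.38 points, is the tallest.

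Gene counts are not part of the data used here, so the level of each gene was read from its junctions. The proxy was the mean over a gene's exon events of log2(1 + rpm), and a gene counted as changed when its adjusted p lay below 0.05. Inclusion is counted at both junctions of an exon and skipping at a single one, so the proxy also moves with inclusion. Folds of the proxy are thus folds of 1 + rpm, which are smaller than folds of rpm where a gene has few reads. In the series 20.7% of 9232 genes rose and 25.1% fell. In all, 45.9% of the genes changed by this measure, so a call on it is common. In bulk samples, fewer cells of a type and less RNA per cell cannot be told apart.

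CLK2 rose and CLK3 fell. The CLK2 proxy was 1.33, 1.27 and 1.41 in Control and 1.54, 1.55 and 1.61 with DFMO, without overlap. Its log2 difference was 0.23 with a standard error of 0.04, or 1.17-fold in 1 + rpm, and the adjusted p was 0.00204 (limma). With a pseudocount of 0.1 in place of 1, the log2 difference was 0.34 (adjusted p = 0.00239, limma). The CLK2 proxy rests on 4 exon events, one of them exon 4. The CLK3 proxy was 2.11, 2.19 and 2.18 in Control and 1.98, 1.98 and 2.03 with DFMO, a log2 difference of -0.16 with a standard error of 0.03 and an adjusted p of 0.00409 (limma).

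The CLK1 proxy was 2.75, 2.79 and 2.77 in Control and 2.79, 2.83 and 2.86 with DFMO. Its log2 difference of 0.06, with a standard error of 0.03, did not pass (adjusted p = 0.127, limma). It passed on exons with a mean above 95% or below 5% alone (0.09, adjusted p = 0.034) and on the spliced junctions of introns (0.08, adjusted p = 0.0145). CLK4 had the same mean of 1.08 in both groups (log2 difference 0.00, adjusted p = 0.995, limma).

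Spliced junctions of introns count 1 junction each, so that the length of a gene does not enter, and they give an order of the 4 genes. On the scale of mean log2(1 + rpm), CLK1 was highest, at 2.01 ± 0.01 in Control and 2.09 ± 0.03 with DFMO (SD, n = 3). CLK4 was lowest, at 0.69 ± 0.01 and 0.72 ± 0.03. CLK3 stood above CLK2 in every Control library, at 1.53 ± 0.04 against 1.38 ± 0.02. With DFMO CLK2 stood above CLK3 in every library, at 1.58 ± 0.04 against 1.37 ± 0.01. On the exon events CLK3 lay above CLK2 in both groups, so this order depends on the events used, and it was not tested.

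**Figure D4:**
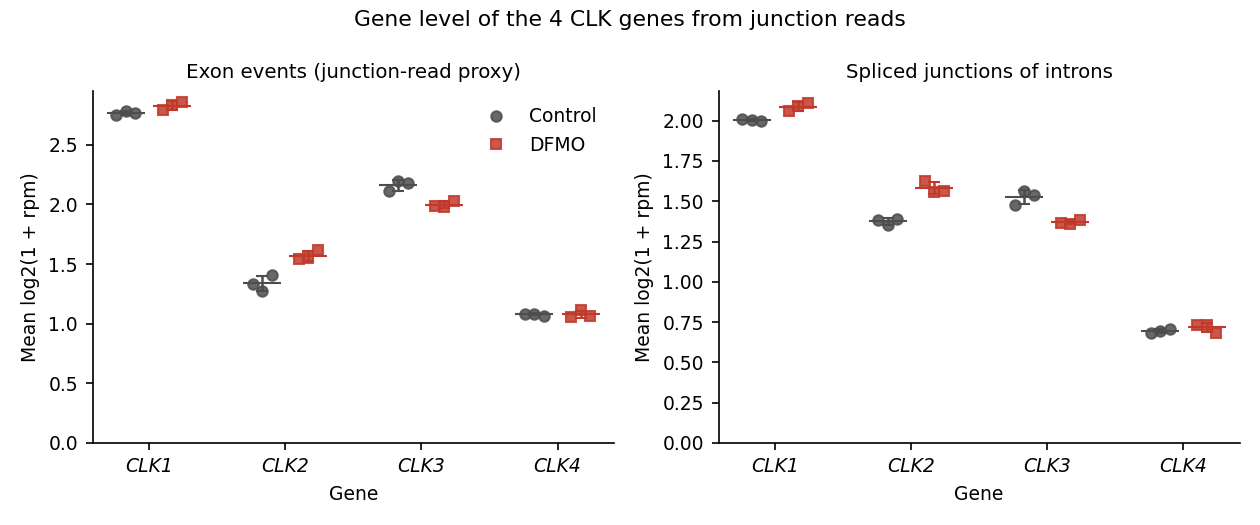
Level of each CLK gene as mean log2(1 + rpm) (y axis, linear from 0), from exon events (left) and from spliced junctions of introns (right). Circles are Control and squares DFMO libraries, and lines with bars the mean ± SD (n = 3). CLK2 is higher and CLK3 lower with DFMO in both panels, and on the right the 2 genes change places (1.38 and 1.53 in Control, 1.58 and 1.37 with DFMO).

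CLK kinases share their substrates and kinase group with other genes, and 23 of these were examined: the SRPK kinases, PRPF4B, the DYRK kinases, and the SR proteins with TRA2A and TRA2B. They had 43 tested events in 17 genes, of which 3 were called higher and none lower with DFMO, where 3.04% of the events of all classes were called and 1.91% were called higher. The median difference of these events was 1.7 points, beside 0.6 points over all tested events. The calls do not hold without the variance trend or in a quasi-binomial test, where 0 of the 43 were called; 8 and 14 of them then had an unadjusted p below 0.05.

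SRSF11, an SR-related splicing factor, had 2 of the calls, which overlap in position and share reads. Its 117-nt exon at chr1:70231859-70231975 was included at 5.56%, 8.89% and 5.3% in Control and 21.68%, 23.82% and 15.57% with DFMO (adjusted p = 0.0105, limma). The surrounding 3712-nt intron at chr1:70228556-70232267 was retained at 5.6%, 4.05% and 8.69% in Control and 22.72%, 26.72% and 11.73% with DFMO (adjusted p = 2.57e-06, limma). The third was a 149-nt exon of the kinase gene DYRK2 at chr12:67649797-67649945, with group means of 66.0% ± 6.05 and 86.5% ± 5.98 (SD, n = 3, limma adjusted p = 0.0268).

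By the junction-read proxy 21 of the 23 genes were measured, with 6 that rose, 4 that fell and 11 without a call. The share with a call is near that of all genes, of which 20.7% rose and 25.1% fell, so the counts show nothing particular to these genes. Their median log2 difference was -0.03, beside -0.01 over all genes. None reached 1.5-fold. On that scale the kinases DYRK1B and DYRK4 were at 1.40-fold and 1.35-fold (adjusted p = 3.8e-05 and 5.5e-05, limma). PRPF4B fell by 0.09 on the log2 scale (adjusted p = 0.0455, limma). SRSF1, a classical substrate of CLK kinases, fell by 0.17 and SRSF5 rose by 0.28 on that scale (adjusted p = 0.00288 and 0.00021, limma). These 5 were named after their values were seen.

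As a description over the 6 libraries, which fall into the 2 groups, the tested exons of other genes most like CLK1 exon 4 were found by Pearson's r of the log2 odds. They were a 91-nt exon of OGDH at chr7:44647444-44647534 (r = 0.9964), a 45-nt exon of SEPT6 at chrX:119625335-119625379 (r = 0.9958) and an 86-nt exon of KRIT1 at chr7:92244016-92244101 (r = 0.9957). The OGDH exon, in a gene of the citric acid cycle, went from 31.3% to 15.1%. The KRIT1 exon went from 34.4% to 12.1% and the SEPT6 exon from 8.90% to 3.17%. By the same measure exon 4 of CLK3 had an r of 0.814 with that of CLK1, CLK4 0.83 and CLK2 -0.894.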

How the data were processed

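The deposited table held 1 row per splicing event, and per library the authors' percent of inclusion, retention or site use with a quality text. The text gave a coverage score, junction reads and the reads for and against inclusion. The genome build was GRCh38, per the submitters' processing notes, and stranded mRNA libraries were made, per the labels' protocols. The aligner, the quantifier and its correction of reads were not given in the sources used here. All table columns with values per library were used.

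Tested events had a coverage score no lower than LOW, 10 reads or more in each library and a mean percent of 5 to 95. The first site of each acceptor or donor group was left out. An offset of 0.5 was added to inclusion and exclusion reads, and their log2 odds were fitted over all events of the series with limma 3.58.1 in R 4.3.3, two-sided, with a robust variance trend on the expected counting variance and Benjamini-Hochberg adjustment within each event class. The script was tested on simulated data. The junction-read proxy was fitted with limma over all genes, after scaling to 1000000 event reads with a pseudocount of 1. Sequences and exon positions came from GENCODE v29.

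Every tested CLK event was to be named, with exon 4 and its flanking introns in all 4 genes, called events of the list of SR kinases and SR proteins, its genes with a proxy difference of 1.5-fold or more, and the 3 exons most like CLK1 exon 4. Exon 4 was set as the position of the CLK1 exon with the lowest p. The members and lists were chosen with earlier results of these data known. Alternatives covered the scale, offset, trend, test, filters, events behind the proxy, single libraries and the replicate number. The use of uncorrected junction reads was added after seeing the data.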

Additional observations from a re-analysis of the deposited data

How the results depend on the processing

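The number of called CLK events was 1 under every alternative run except without a variance trend, where it was 0 (limma, 3 of 12 events with an unadjusted p below 0.05). Without that trend the SR kinases and SR proteins also had 0 calls in place of 3. Leaving out each library in turn kept the CLK count at 1. The adjusted p of CLK1 exon 4 was 0.0428 in the quasi-binomial test and 5.15e-10 from uncorrected junction reads. Over the series, the number of called exons was 259, with 203 higher and 56 lower. It was 14 without the trend, 24 in the quasi-binomial test, 160 without DFMO replicate 1 and 161 without Control replicate 3. The 140 called introns became 44 with balanced reads, 87 when the mean percent was not filtered and 2 in the quasi-binomial test. The 30 called acceptor sites became 8 without DFMO replicate 1 and 12 without DFMO replicate 2. Without the trend no intron and no acceptor site was called in limma (643 and 249 with an unadjusted p below 0.05), and in the quasi-binomial test no acceptor site (260). With balanced reads at both ends required, the 2 tested CLK introns gave no value. The number of CLK genes with a changed proxy was 2, and 3 on constitutive exons and on spliced junctions of introns, where CLK1 passed.

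Same-numbered libraries did not deviate together from their group means over the tested exons (r = -0.020, -0.002 and -0.007). These deviations also hold counting noise, so the check cannot settle whether the numbers pair samples. With a replicate block, 1 CLK event was called, 2 CLK genes had a changed proxy and 254 exons of the series were called. CLK4 exon 4 rests on 82 to 109 reads per library, against 409 to 584 for CLK1.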
